A study of Mus musculus with 9 samples.

Results

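The 9 genes described here carry the signal from phosphoinositide 3-kinase (PI3K) to the growth machinery of the oocyte, and they are Foxo3, Akt1, Pdpk1, Pik3ca, Tsc1, Tsc2, Mtor, Rptor and Rictor. They were taken by symbol from 28052 genes with UMI counts, and each had exactly 1 row. The samples were 9 pools of 30 oocytes, 3 each from XX, XO and XY female mice, and each pool joined 20 oocytes with a diameter of 55–60 μm to 10 smaller ones of 50–55 μm. The labels give 18 dpp as age and C57BL/6 as strain for every pool. XY females, in which sex reversal follows from the Y chromosome of TIR origin, and their XX sisters had B6.Y TIR fathers and B6 mothers. XO females had fathers carrying the Paf mutation, from a C3H/HeSnJ stock crossed back to B6, and B6 mothers. The XO pools thus differ from the others in their cross, and they lack the second X of XX or the Y of XY. These differences cannot be told apart. The XO oocytes carry the X chromosome of the mother. The paper calls the 3 pools of a genotype biological triplicates, but nothing in the labels says that they came from separate animals. The p-values therefore measure the spread between pools, part of which may be technical.

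In the oocyte, the receptor tyrosine kinase KIT and insulin-like growth factor receptors activate PI3K, whose lipid product recruits PDPK1 and AKT to the membrane. AKT phosphorylates FOXO3, a transcription factor that holds primordial follicles dormant while it remains in the nucleus, and it also inhibits the TSC1–TSC2 complex, the brake on mTOR. The mTOR kinase acts in complex 1 with RAPTOR (Rptor), which drives translation and growth, and in complex 2 with RICTOR (Rictor), which phosphorylates AKT. Most of this control is by phosphorylation and by movement of proteins, which transcript counts do not record.

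Each pool held between 2130145 and 3157338 UMIs on genes, and 18334–21044 genes had at least 1 UMI. The deposited normalized CPM are UMI counts multiplied by 1 constant per pool. They sum to 802037–888533 in XX, 1181293–1422594 in XO and 864867–990044 in XY pools. The paper states that ERCC spike-ins were used for the normalization. The constants did not follow the share of spike-ins in a pool. XX3 had the lowest share, 0.204%, and also the lowest sum, 802037, whereas XY1 had the highest share, 0.862%, and a sum of 990044. The sums are therefore not read here as amounts of RNA. The mitochondrial genes took 13.1% of the UMIs in XO1 and 10.8% in XY1, against 2.65–6.02% in the other 7 pools. Markers of the oocyte were abundant, with summed levels of 21184–32580 normalized CPM, whereas the 7 granulosa markers with a row summed to 48.0–92.1 normalized CPM. Of these, Inha and Gja1 had at most 1 UMI in any pool, whereas Nr5a2 had 41–114, Cyp19a1 7–147 and Kitl, which encodes KIT ligand, 11–63 UMIs. Kitl was called lower in XO than in XX by the edgeR test described with the comparisons (log2 -1.09 ± 0.31 SE, adjusted p = 0.203). In this test 154 of 10993 genes were called lower in XO. Nr5a2 and Cyp19a1 were not called, with log2 differences of 0.25 and 0.12 in XO over XX. The part of Kitl in the results for the members was not tested. The blood marker Cd68 had 3 UMIs in XO3 and 0 elsewhere. The number of oocytes was set at 30 in every pool. For any other cells carried along, fewer cells and less RNA per cell cannot be told apart, because pools were measured.

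The levels of the 9 genes differed widely. Tsc2, the GTPase-activating subunit of the TSC complex, was the most abundant in every pool, with a mean of 721 normalized CPM over the 9 pools. It was followed by Rictor at 94.4, Pdpk1 at 68.2, Foxo3 at 54.3, Tsc1 at 31.5, Pik3ca at 22.8, Mtor at 13.2, Rptor at 13.2 and Akt1 at 0.401 normalized CPM. Within pools, Tsc2 was above Rictor, Foxo3 above Tsc1 and Rptor above Akt1 in 9 of 9 pools. The other neighbours in this order changed places between pools, with Rictor above Pdpk1 in 7, Pdpk1 above Foxo3 in 6, Tsc1 above Pik3ca in 7, Pik3ca above Mtor in 7 and Mtor above Rptor in 6 of 9 pools. Each UMI marks the 5′ end of a transcript, so these levels need no division by length, and per kb of exonic sequence the order was Tsc2 (74.9), Foxo3 (7.17), Pdpk1 (6.24), Rictor (5.58), Tsc1 (2.66), Pik3ca (2.51), Mtor (1.31), Rptor (0.979) and Akt1 (0.0978 normalized CPM per kb).

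**Figure D1:**
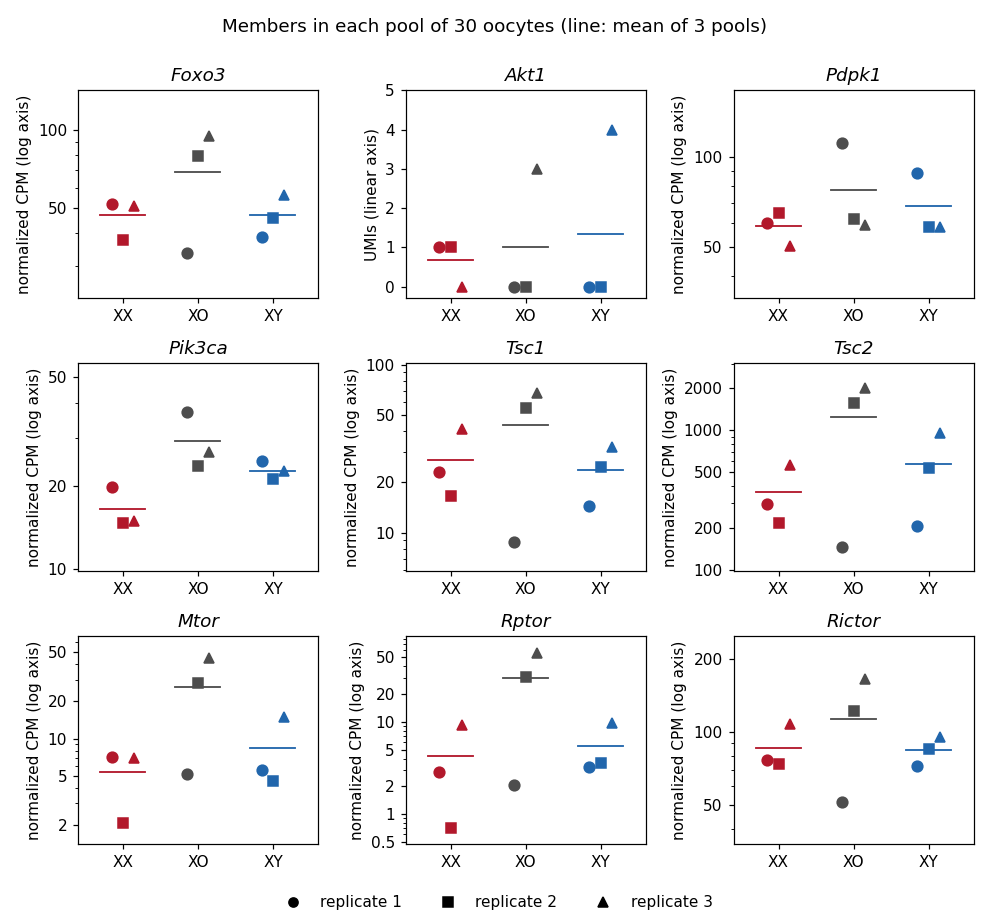
Normalized CPM of each member in each pool (log axes, and UMIs on a linear axis for Akt1), by genotype, with the replicate number as the shape of the point and the mean of 3 pools as a line. Tsc1, Tsc2, Foxo3 and Rictor are lowest in XO1 and highest in XO3, so that the 3 XO pools enclose all other pools, whereas Pdpk1 and Pik3ca are highest in XO1.

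At the top of the pathway, Pik3ca (chr3:32397671-32468486, plus strand, GRCm38) encodes a catalytic subunit of class I PI3K. It stood at 19.9, 14.7 and 14.9 normalized CPM in the XX pools, at 37.3, 23.8 and 26.5 in XO1, XO2 and XO3 and at 24.6, 21.2 and 22.6 in the XY pools. All XO and all XY pools were above all XX pools, while XO and XY pools overlapped. Pik3ca was a minor transcript of its family. Of 3135 UMIs on the 4 catalytic genes of class I, 16.1% came from Pik3ca (95% Wilson interval 14.9–17.4%), 4.98% from Pik3cb, 78.9% from Pik3cd (77.4–80.3%) and 0.0319%, a single UMI, from Pik3cg. The share of Pik3ca reached 46.2% in XO1 and 26.4% in XY1, where Pik3cd had its lowest counts, 68 and 134 UMIs, and lay at 10.7–17.0% in the other pools. These intervals cover counting error alone.

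Pdpk1 (chr17:24073680-24150924, minus strand) encodes the kinase that activates AKT in its activation loop. Its levels were 60.2, 65.1 and 50.6 normalized CPM in the XX pools, 111, 62.0 and 59.3 in XO and 88.8, 58.3 and 58.6 in XY pools. XO1 and XY1 stood highest and the other 7 pools lay between 50.6 and 65.1 normalized CPM.

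Akt1 (chr12:112653821-112674884, minus strand) was barely detected. It had 1, 1 and 0 UMIs in XX1, XX2 and XX3, 0, 0 and 3 in XO1, XO2 and XO3 and 0, 0 and 4 in XY1, XY2 and XY3. The 2, 3 and 4 UMIs of the genotypes lie at or near the limit of 3 UMIs that a count of 0 allows over 3 pools, which equals 0.335 normalized CPM for XX, 0.532 for XO and 0.351 for XY. Akt1 did not pass the filter on low counts, and a difference between genotypes was not detectable at this depth.

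Foxo3 (chr10:42181841-42276755, minus strand) had 145, 108 and 168 UMIs in XX, 65, 153 and 168 in XO and 83, 141 and 186 in XY pools. On the scale of normalized CPM these are 51.6, 37.8 and 51.2 in XX, 33.7, 79.1 and 94.8 in XO and 38.6, 45.9 and 56.1 in XY pools. XO1 was the lowest of the 9 pools and XO2 and XO3 were the highest. The XX and XY means were 46.9 ± 7.86 and 46.9 ± 8.83 (SD, n = 3), and the XO mean was 69.2 ± 31.8. Foxo1, a related transcription factor, had more UMIs than Foxo3 in 9 of 9 pools, with 56.1% of the 2774 UMIs on the FOXO genes with a row (54.2–57.9%) against 43.9% for Foxo3 (42.0–45.7%), and Foxo6 had 1 UMI in all. The Foxo3 share was 30.2% in XO1, 36.2% in XY1 and 38.4–49.6% in the other pools.

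**Figure D2:**
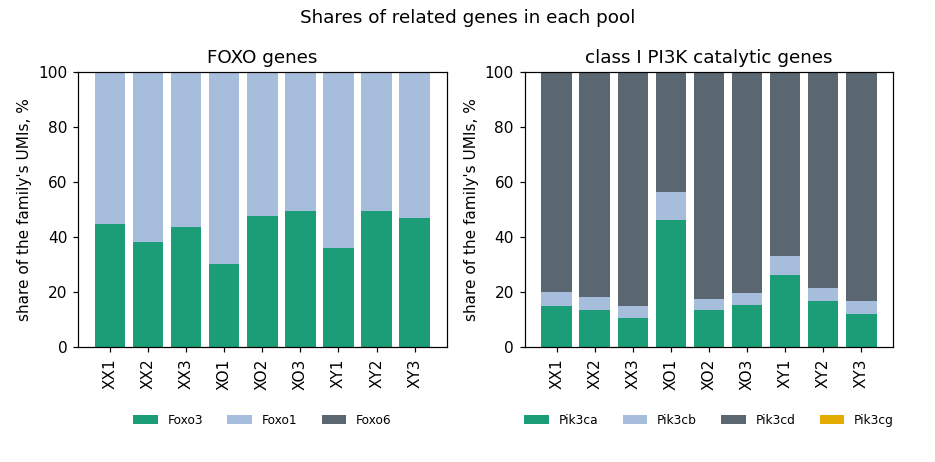
Share of the UMIs of the FOXO genes and of the class I PI3K catalytic genes that came from each paralog, in percent, in each of the 9 pools. Pik3cd holds most of the UMIs of the PI3K catalytic genes, Foxo1 holds the larger share of the FOXO genes in every pool (56.1% over all pools), and the Pik3ca share is highest in XO1 (46.2%) and XY1 (26.4%).

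Tsc2 (chr17:24595816-24632630, minus strand) varied 13.7-fold between pools. It had 297, 218 and 558 normalized CPM in the XX pools, 146, 1558 and 2006 in XO and 207, 534 and 962 in XY pools. XO1 was the lowest pool and XO2 and XO3 the highest, so the XO genotype holds both ends of the range. Tsc1 (chr2:28641228-28691167, plus strand), which encodes the stabilizing partner of TSC2, likewise had its lowest and highest pools in XO1 and XO3, at a far lower level, with 22.8, 16.5 and 41.4 normalized CPM in the XX pools, 8.80, 54.8 and 67.7 in XO and 14.4, 24.4 and 32.3 in XY pools. The start of Tsc2 lies 50 bases from that of Nthl1 on the other strand, which had 51 UMIs in all 9 pools together, and Pkd1, which overlaps the far end of Tsc2 on the other strand, had 19 UMIs.

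Mtor (chr4:148448611-148557683, plus strand), the kinase itself, had 20, 6 and 23 UMIs in XX, 10, 54 and 79 in XO and 12, 14 and 50 in XY pools, or 7.12, 2.10 and 7.01, then 5.18, 27.9 and 44.6, then 5.58, 4.56 and 15.1 normalized CPM. Rptor (chr11:119602905-119899576, plus strand), the scaffold of complex 1, had 8, 2 and 30 UMIs in XX, 4, 60 and 100 in XO and 7, 11 and 32 in XY pools, or 2.85, 0.700 and 9.14, then 2.07, 31.02 and 56.5, then 3.25, 3.58 and 9.66 normalized CPM. For both genes XO2 and XO3 were the highest of all pools, and XO1 lay within the range of the XX pools. Rictor (chr15:6708379-6800401, plus strand), the scaffold of complex 2, was more even, with 76.9, 73.9 and 108 normalized CPM in the XX pools, 51.8, 121 and 165 in XO and 72.5, 85.0 and 95.7 in XY pools. Its XO pools again enclosed all others.

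The spread between pools of the same genotype was therefore measured for each gene as the standard deviation of log2(normalized CPM + 1) around the genotype means. It was 1.55 for Rptor, 1.42 for Tsc2, 1.10 for Mtor and 1.02 for Tsc1, against a median of 0.497 over 7214 tested genes with at least 10 TMM-scaled CPM. Rptor and Tsc2 stood at percentiles 96.0 and 94.4 of these genes. Rictor (0.535) and Foxo3 (0.499) were near the median, and Pdpk1 (0.366) and Pik3ca (0.240) were below it. Differences between genotype means held 72.3% of the variance of Pik3ca, 41.1% of that of Mtor, 33.9% of that of Rptor and 6.21–20.7% for the other 5 genes tested, against a median of 24.5%. With TMM factors, which scale by the genes and not by the spike-ins, the share for Pik3ca was 31.6% and that for Mtor 38.5%.

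In TMM-scaled CPM, the pools separated the pathway into genes that varied together and against each other. With TMM scaling and log2(CPM + 1), the 15 pairs among Foxo3, Tsc1, Tsc2, Mtor, Rptor and Rictor had Pearson coefficients of 0.54–0.96 over the 9 pools, with 0.96 for Mtor and Rptor and 0.92 for Tsc1 and Tsc2. Pdpk1 and Pik3ca had a coefficient of 0.72 with each other, and their 12 coefficients with the other genes were between -0.95 and -0.20. In normalized CPM the first set reached 0.80–0.98, while the 12 coefficients between the sets spread from -0.77 to 0.34. These are descriptions over 9 pools that share depth and scaling.

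The mitochondrial share of a pool moved with this pattern. With TMM scaling, Tsc1 had a coefficient of -0.97 with the log2 mitochondrial share over the 9 pools. Foxo3 had -0.94, Rictor -0.92, Tsc2 -0.89, Rptor -0.76 and Mtor -0.68, whereas Pdpk1 had 0.95 and Pik3ca 0.79. Such values were common, since 33.9% of the 7214 genes had a coefficient below -0.6 and 33.7% had 1 above 0.6. In normalized CPM Pik3ca had 0.45 and Pdpk1 0.88, and the other tested members lay between -0.95 and -0.65. Among oocyte markers, Zp3, which encodes a zona pellucida protein, had 24 UMIs in XO1 and 47 in XY1 against 659 and 1010 in XO2 and XO3, and Oosp1, a secreted oocyte protein gene, had 17648 and 11989 against 4824 and 4420. Pecam1, an endothelial marker, had 28 and 47 UMIs in XO1 and XY1 and 211 and 233 in XO2 and XO3, while Cdh5 and Kdr had at most 11 UMIs in any pool. The part of these differences between pools in the results for the genotypes was not tested.

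**Figure D3:**
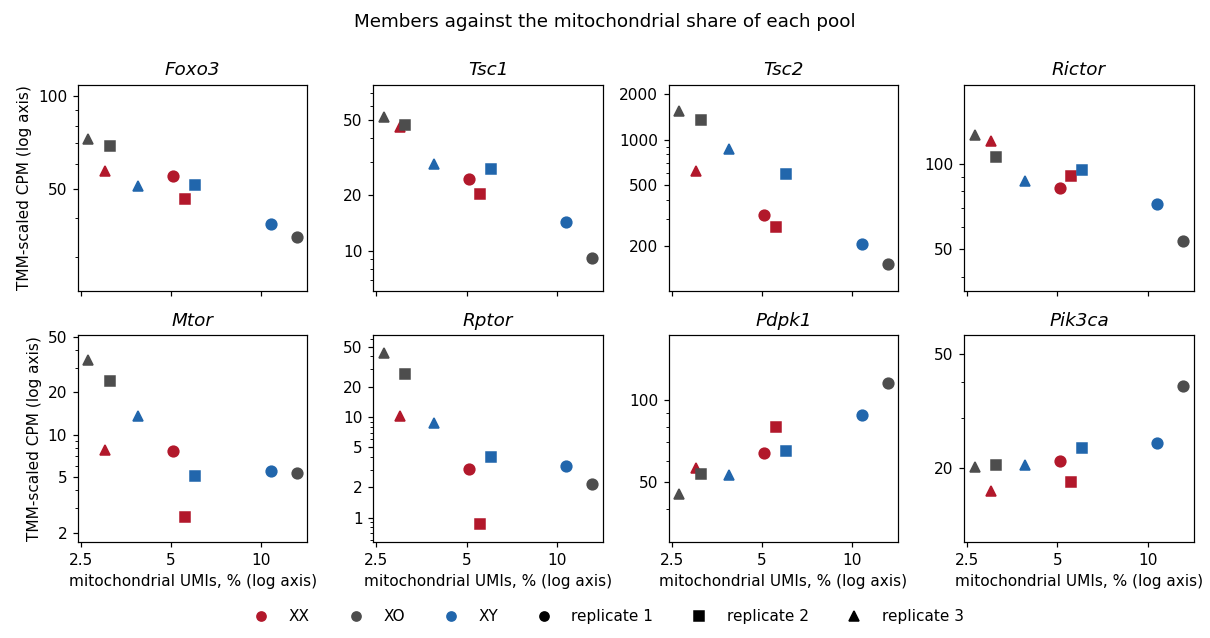
TMM-scaled CPM of 8 members (log axes) against the percentage of UMIs on mitochondrial genes (log axis), 1 point per pool, with the genotype as colour and the replicate number as shape. Levels of Foxo3, Tsc1, Tsc2 and Rictor are lowest and those of Pdpk1 and Pik3ca highest in the pools with the largest mitochondrial share, XO1 (13.1%) and XY1 (10.8%). For Mtor and Rptor the lowest pool is XX2, at 2.57 and 0.856 TMM-scaled CPM.

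Among the genes most like Foxo3 over the 9 pools, by the Pearson coefficient of log2(TMM-scaled CPM + 1), were Ezh1 (0.98), a histone methyltransferase gene, the gene model Gm7789 (0.98), Med27 (0.98), which encodes a Mediator subunit, and Crabp2 (0.98), which encodes a retinoic acid binding protein. In log2(normalized CPM + 1) they had 0.96, 0.97, 0.99 and 0.95. Of the members, Tsc1 came closest, at rank 47 with 0.96.

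The promoters of Tsc2, Tsc1 and Mtor, which moved together, and of Pik3ca are shown from RefSeq (GRCm38.p6). Each has 300 bases, 5′ to 3′ on the strand of the gene, from 250 bases before the start. With TMM scaling Pik3ca had coefficients of -0.55, -0.76 and -0.20 with Tsc2, Tsc1 and Mtor. In normalized CPM they were -0.02, -0.24 and 0.34, so a movement of Pik3ca against these genes depends on the scaling. All 9 members were matched there, Akt1 and Pdpk1 with more than 1 start. Capitals mark matches on either strand to the ETS motif CCGGAAG, the YY1 motif ATGGCGGC and the CCAAT box.
Tsc2, chr17:24632578-24632877, minus strand: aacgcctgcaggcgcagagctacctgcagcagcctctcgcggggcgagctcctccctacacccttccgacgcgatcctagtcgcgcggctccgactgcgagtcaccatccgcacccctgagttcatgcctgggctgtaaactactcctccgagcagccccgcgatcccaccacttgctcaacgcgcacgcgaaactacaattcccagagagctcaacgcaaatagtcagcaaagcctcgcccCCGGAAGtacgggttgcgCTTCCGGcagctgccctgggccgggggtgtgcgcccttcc
Tsc1, chr2:28640983-28641282, plus strand: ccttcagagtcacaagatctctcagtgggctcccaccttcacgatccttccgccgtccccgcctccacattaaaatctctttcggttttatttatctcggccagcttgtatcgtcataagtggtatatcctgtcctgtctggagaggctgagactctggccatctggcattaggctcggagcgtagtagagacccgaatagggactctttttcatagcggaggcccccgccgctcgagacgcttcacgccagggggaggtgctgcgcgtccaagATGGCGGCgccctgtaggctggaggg
Mtor, chr4:148448332-148448631, plus strand: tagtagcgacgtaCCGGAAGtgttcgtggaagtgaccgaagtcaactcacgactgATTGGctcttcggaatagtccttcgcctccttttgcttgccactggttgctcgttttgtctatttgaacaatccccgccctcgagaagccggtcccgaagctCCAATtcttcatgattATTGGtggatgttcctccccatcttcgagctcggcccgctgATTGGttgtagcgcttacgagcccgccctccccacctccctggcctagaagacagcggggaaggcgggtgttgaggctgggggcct
Pik3ca, chr3:32396815-32397114, plus strand: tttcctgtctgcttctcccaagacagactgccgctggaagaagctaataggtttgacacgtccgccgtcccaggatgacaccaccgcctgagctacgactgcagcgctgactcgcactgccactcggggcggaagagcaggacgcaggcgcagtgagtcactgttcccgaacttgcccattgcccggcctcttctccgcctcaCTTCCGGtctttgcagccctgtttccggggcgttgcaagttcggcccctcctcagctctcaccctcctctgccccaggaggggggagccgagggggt

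The ETS motif was found in Tsc2, which holds 2 matches, in Mtor and in Pik3ca, and in 8.86% of 32851 promoters of the same length. The YY1 motif stood near the end of the window in Tsc1 and was also found in Rictor, against 2.24% of all promoters. CCAAT was found in Mtor, with 4 matches, in Pdpk1 and in Rictor, against 37.4% of all. TATAAA and CACGTG were found in no member, against 13.6% and 7.15% of all promoters, and the FOXO motif GTAAACA was found in 1 of the Akt1 windows and in 3.65% of all. No motif was found in all of Foxo3, Tsc1, Tsc2, Mtor, Rptor and Rictor, and a match says only that the letters are there.

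The genotypes were compared with edgeR's quasi-likelihood test on the UMI counts of 10993 genes, 8 of the 9 members among them, with the spike-in factors of the authors. A gene was called at an unadjusted p below 0.05, the threshold of the study, and p-values adjusted by Benjamini and Hochberg over all tested genes are given beside it. The study's own calls came from another model, limma with surrogate variables as covariates. The paper reports lower levels of X-linked and many autosomal genes in XO than in XX oocytes. Here 154 genes were called higher in XX and 1832 higher in XO, and the cause of this difference was not tested. With the spike-ins, the median of all tested genes was itself shifted by 0.46 on the log2 scale towards XO over XX, by 0.19 towards XY over XX and by 0.30 towards XO over XY, and with TMM factors on the genes by 0.11, 0.01 and 0.13.

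To ask whether growth control differs in the absence of the second sex chromosome, XO was set against XX. Transcripts of Rptor, Mtor and Pik3ca were called higher in the XO pools, and no member was called lower. No tested gene passed adjustment in this comparison. Rptor was 6.86-fold higher in XO (log2 2.78 ± 1.06 SE, adjusted p = 0.233), with means of 29.8 ± 27.2 normalized CPM (SD, n = 3) in XO and 4.23 ± 4.39 in XX. Mtor was 4.73-fold higher (log2 2.24 ± 0.78, adjusted p = 0.216). Pik3ca was 1.77-fold higher (log2 0.82 ± 0.28, adjusted p = 0.214), with 29.2 ± 7.13 in XO and 16.5 ± 2.96 in XX.

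Against the shifted median, these differences were 2.32 for Rptor, 1.78 for Mtor and 0.36 for Pik3ca on the log2 scale. The 3 of 8 members compare with 18.1% of all tested genes called in either direction and 16.7% called higher in XO. Pik3ca was also the only 1 of the 8 tested members whose XX and XO pools did not overlap, against 13.6% of all tested genes not overlapping and higher in XO. The log2 differences of the other members were 1.79 ± 0.87 for Tsc2 (adjusted p = 0.300), 0.70 ± 0.65 for Tsc1, 0.56 ± 0.38 for Foxo3, 0.40 ± 0.33 for Pdpk1 and 0.39 ± 0.40 for Rictor, the last of which changed sign to -0.04 with TMM scaling.

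The XO pool XO1 weighed heavily on these values. Without it, many more genes were called, 36.9% of 11590 genes tested in either direction, 34.2% higher in XO and 25.2% with an adjusted p below 0.05. Among them, 6 of 8 members were called higher in XO than in XX, and Rptor (9.96-fold, adjusted p = 0.00714), Mtor (6.61-fold, adjusted p = 0.00688), Tsc2 (4.98-fold, adjusted p = 0.0139) and Foxo3 (1.85-fold, adjusted p = 0.0332) had an edgeR adjusted p below 0.05. Tsc1 (2.27-fold, adjusted p = 0.0554) and Rictor (1.66-fold, adjusted p = 0.0811) were called without adjustment alone, and Pik3ca (1.52-fold, adjusted p = 0.142) was no longer called. Without XX2 no member was called, without XO3 Pik3ca alone, without XX1 Mtor and Pik3ca, and without XX3 Rptor and Mtor. Of all tested genes, 1008 of 11623 were called without XX2, 1059 of 11371 without XO3, 1281 of 11568 without XX1 and 1656 of 11576 without XX3. Pik3ca was not called with TMM scaling (log2 0.50, adjusted p = 0.542), and with 2 surrogate variables the log2 differences of Rptor and Mtor, 0.70 and 0.42, were not called while that of Tsc2, 0.69, was (adjusted p = 0.0678).

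The deposited log2 values with batch effects regressed out gave another picture. In that matrix, Foxo3, Tsc1 and Rictor were lower in XO than in XX by -0.50, -1.02 and -0.72 on the log2 scale, with no overlap between the pools, and Pik3ca was higher by 0.40, also without overlap. Rptor and Mtor were higher by 0.46 and 0.47 and Tsc2 was lower, at -0.48, all with overlap. Relative to XY, XO pools were lower in Foxo3 (-0.37), Tsc1 (-0.76), Tsc2 (-0.88) and Rictor (-0.58), without overlap and opposite in sign to the spike-in scaled counts. These values carry no test, since the regression was made across the same 9 pools.

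Between XX and XY oocytes, DESeq2 called 0 of 8 members at an unadjusted p below 0.05. It called 576 of 10989 genes, 288 of them higher in XY. At the same threshold edgeR called 0 of 8 members, where 5.8% of all tested genes were called in either direction and 4.39% higher in XY. Pik3ca came nearest, 1.38-fold higher in XY (log2 0.46 ± 0.28, adjusted p = 1.00), and its pools did not overlap, as was the case for 11.7% of all tested genes with XY higher. Foxo3 had equal means of 46.9 normalized CPM in XX and XY and a log2 difference of 0.0011 ± 0.38 (-0.18 with TMM scaling). The log2 differences of the other 6 members lay between -0.18 for Tsc1 and 0.67 for Tsc2, with standard errors of 0.33–1.06, so changes of this size could not be told from the spread between pools. With 2 surrogate variables, Tsc2 was called higher in XY (log2 0.56, adjusted p = 0.0261).

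Between XY and XO oocytes, Rptor was called, 5.29-fold higher in XO (log2 2.40 ± 1.04, adjusted p = 0.499), and the other 7 tested members were not. This is 1 of 8, where 9.93% of all tested genes were called in either direction and 8.24% higher in XO. In normalized CPM no member separated the 3 XY from the 3 XO pools, against 6.34% of all tested genes higher in XO without overlap. Mtor had a log2 difference of 1.60 ± 0.76 (adjusted p = 0.511). In the edgeR fit with a replicate block, which took same-numbered pools of all genotypes together, Mtor was called too (log2 1.60, adjusted p = 0.264). Rptor had an adjusted p of 0.240 there, and 1827 of 10993 genes were called. The edgeR call of Rptor was lost with TMM scaling (adjusted p = 0.545), with 2 surrogate variables (adjusted p = 0.320) and when XX1, XO2, XO3, XY1 or XY2 was left out. Without XO1, 6 members were called, where 32.1% of all tested genes were, and 2 without XY3, where 1510 of 11503 genes were.

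**Figure D4:**
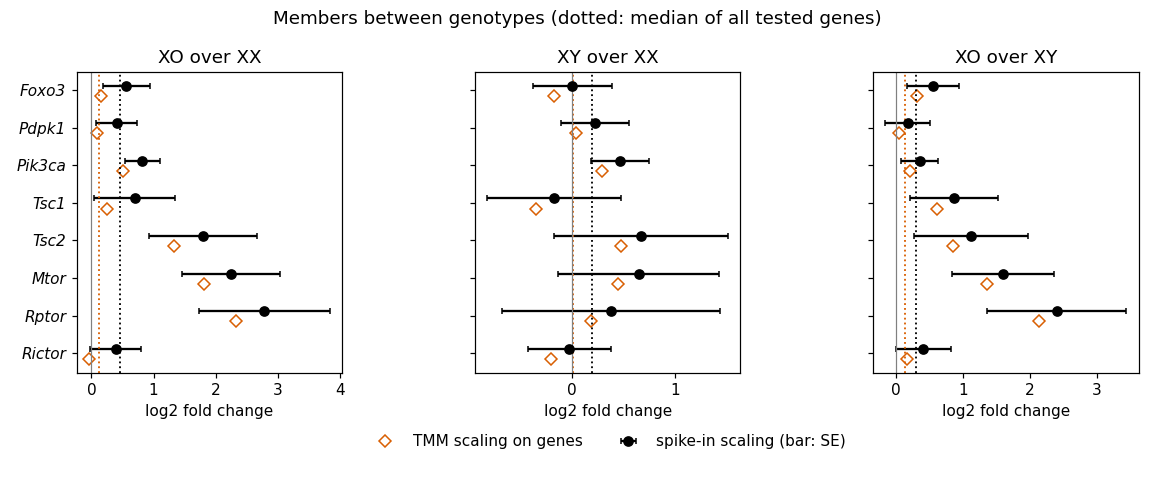
Log2 fold change of 8 members between genotypes by edgeR, with spike-in scaling (black, bars are 1 standard error) and with TMM scaling (open diamonds), and the median of all tested genes under each scaling as dotted lines. Rptor and Mtor lie farthest above the median in XO over XX and in XO over XY, and every bar in XY over XX crosses the median line.

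Ratios within a pool do not depend on the scaling between pools. Tsc1 to Tsc2, the ratio of the subunits of the TSC complex, was 0.0766, 0.0756 and 0.0742 in the XX pools, 0.0603, 0.0352 and 0.0338 in the XO pools and 0.0695, 0.0457 and 0.0336 in the XY pools. The XX pools lay within a narrow range although Tsc2 itself differed 2.56-fold among them, and all 6 XO and XY pools were below them. These ratios rest on 64, 47 and 136 UMIs of Tsc1 in XX, 17, 106 and 120 in XO and 31, 75 and 107 in XY pools. The counting error at these numbers was not measured, so how far XO1 and XY1 lie below the XX pools is uncertain, as is the narrowness of the XX range. On the log2 scale with 0.5 added to each count, the XX mean was -3.72 ± 0.027 (SD, n = 3) against -4.48 ± 0.47 (n = 6) in XO and XY together, a difference of 0.76 (exact permutation test, two-sided, p = 0.0238, the smallest this design can give, and 0.286 after adjustment over 12 tests). XX against XO and XX against XY each reached p = 0.10, the smallest value that an exact permutation test of 3 against 3 pools allows.

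Rptor to Rictor, which sets the scaffold of complex 1 against that of complex 2, was 0.0370, 0.00948 and 0.0850 in XX, 0.0400, 0.255 and 0.342 in XO and 0.0449, 0.0421 and 0.101 in XY pools. XO2 and XO3 stood above all others, and the genotypes overlapped. XX differed from XO and XY together by -1.51 on the log2 scale (exact permutation test, p = 0.167, adjusted p = 0.480). Foxo3 to Akt1 could be formed from whole counts in 4 pools only, since Akt1 was at 0 in the rest, and its values of 145, 108, 56.0 and 46.5 in XX1, XX2, XO3 and XY3 rest on 1–4 UMIs of Akt1. Its 4 comparisons had p of 0.881–1.00 in exact permutation tests.

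**Figure D5:**
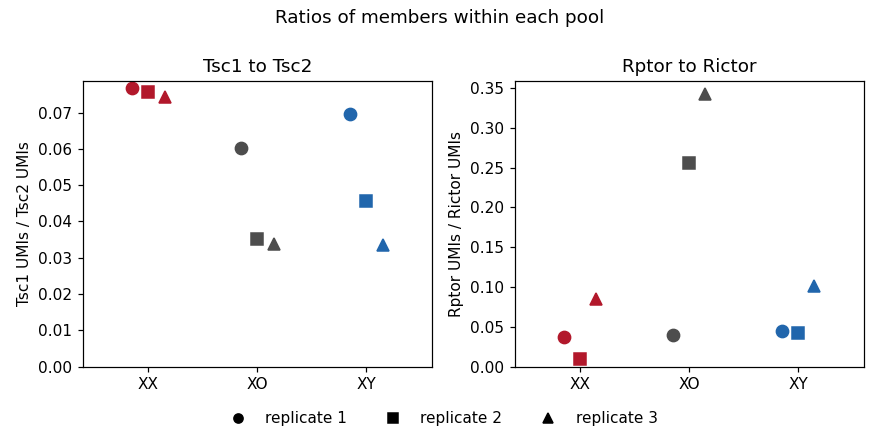
Ratio of Tsc1 to Tsc2 UMIs and of Rptor to Rictor UMIs in each pool, by genotype, with the replicate number as shape. The 3 XX pools lie between 0.0742 and 0.0766 for Tsc1 to Tsc2, above all XO and XY pools, and XO2 and XO3 stand apart for Rptor to Rictor at 0.255 and 0.342.

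Around the members, 97 further genes of the pathway were grouped in 11 lists, of which 95 had a row and 62 were tested. Against XX, 11 of the 62 were called higher in XO and none lower by edgeR, where 16.7% of all tested genes were called higher in XO. With TMM scaling 7 were called higher and 1 lower, where 864 of 10993 genes were called higher and 481 lower. The median log2 difference of the 62 was 0.47, where the median of all tested genes was 0.46. Between XX and XY, 3 were called, all higher in XY, where 4.39% of all tested genes were, with a median of 0.21 against 0.19 for all tested genes, and between XY and XO 3 were called, all higher in XO, where 8.24% of all tested genes were, with a median of 0.41 against 0.30. After adjustment edgeR left 0 of these calls in each comparison, and DESeq2 made 0, 1 and 0 calls at an adjusted p below 0.05. Of all tested genes, 0, 9 and 4 passed adjustment with edgeR and 175, 80 and 65 with DESeq2. Without XO1, 30 of 65 were called in XX against XO, 5 in XX against XY and 25 in XY against XO, where 36.9%, 11.1% and 32.1% of all tested genes were called. XX against XO had 7 calls without XX2, where 1008 of 11623 genes were called, and 7 without XO3, where 1059 of 11371 were. XY against XO had 1 without XY1 (625 of 11541 genes), 1 without XY2 (446 of 11558) and 7 without XY3 (1510 of 11503). With same-numbered pools of all genotypes blocked, 12 were called, where 1827 of 10993 genes were.

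Of receptors and adaptors, with 3 of 8 genes tested, Igf1r, the receptor of insulin-like growth factors, was 2.07-fold higher in XO than in XX (adjusted p = 0.203), with 8.15 ± 1.35 normalized CPM in XX and 16.9 ± 2.66 in XO and no overlap. Grb2, an adaptor between receptors and RAS, was 2.12-fold higher in XY than in XX (adjusted p = 0.501), with 11.9 ± 0.84 in XX and 25.2 ± 0.427 in XY. Kit, the receptor for KIT ligand, was the most abundant gene of the list, at 63.7–207 normalized CPM, and was not called in any comparison. Of the PI3K subunits, with 4 of 8 tested, the regulatory subunit gene Pik3r3 was 1.60-fold higher in XY than in XX (adjusted p = 0.697), and Pik3cd was the most abundant at 35.2–155 normalized CPM.

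Of the AKT and SGK kinases, with 4 of 5 tested, Sgk3, whose product acts on FOXO and other AKT substrates, was higher in both XO and XY than in XX. It had 6, 3 and 3 UMIs in XX, 17, 10 and 4 in XO and 16, 30 and 29 in XY pools, and the log2 differences were 1.97 ± 0.57 for XO (adjusted p = 0.203) and 2.64 ± 0.55 for XY (adjusted p = 0.206). Both calls remained with TMM scaling (log2 1.68 for XO and 2.48 for XY).

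Of the lipid and AKT phosphatases, 5 of 8 were tested and none was called in any comparison. Ppp2ca, the catalytic subunit gene of a phosphatase acting on AKT, led the list at 55.3–105 normalized CPM. Of the FOXO family, Foxo1 alone was tested, at 46.9–96.0 normalized CPM, and was not called. Of the FOXO target genes, with 5 of 8 tested, Bcl6, a transcriptional repressor (log2 2.20 ± 0.91), and Bcl2l11, the pro-apoptotic gene of BIM (log2 2.24 ± 0.66), were higher in XO than in XX, with adjusted p of 0.256 and 0.203, and Ccng2 was the most abundant at 12.9–35.0 normalized CPM.

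Upstream of mTOR, none of the 3 genes around TSC and RHEB was called, and Rheb, the GTPase that TSC2 inhibits, led at 40.8–79.7 normalized CPM. Of the RAG and amino acid branch, 17 of 22 were tested and 4 were called higher in XO than in XX. Rragc, a RAG GTPase gene, had a log2 difference of 2.13 ± 0.57, Lamtor5, of the lysosomal anchor, 1.26 ± 0.48, Nprl2, of the inhibitory GATOR1 complex, 2.68 ± 1.15 and Sec13, a shared subunit of GATOR2 and the nuclear pore, 3.49 ± 1.18, with adjusted p of 0.203–0.266. Rragc (log2 1.95) and Sec13 (log2 3.44) were also called in XY against XO, both with an adjusted p of 0.485. Nprl2 was the most abundant of this branch, with a range of 8.80–366 normalized CPM whose ends are XO1 and XO3.

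Of AMPK and LKB1, with 7 of 9 tested, the regulatory subunit gene Prkab2 was higher in XO than in XX (log2 0.99 ± 0.41, adjusted p = 0.254), and Prkaa2 was the most abundant at 43.5–172 normalized CPM. The other mTOR complex subunits had no called gene among 6 tested, and Deptor, which encodes an inhibitor of mTOR, led at 107–203 normalized CPM. Of the effectors of complex 1, with 7 of 14 tested, Rps6, a ribosomal protein gene with near-identical copies elsewhere in the genome, and Lpin1, a phosphatidate phosphatase gene, were higher in XO than in XX (log2 2.90 ± 0.88 and 2.27 ± 0.68, both adjusted p = 0.203). Rps6 was also called in XY against XO (log2 2.36, adjusted p = 0.485). Eif4e, the cap-binding protein gene, was the most abundant of all lists at 1138–4285 normalized CPM, highest in XO1 and XY1, as Pdpk1 was.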

How the data were processed

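RNA of 9 pools of XX, XO and XY oocytes was analysed, grouped by the labels, and the XO column without a number was taken as XO1. The authors made Smart-seq3 libraries, aligned stranded read pairs with HISAT2 to GRCm38 and Gencode (versions not given in the sources used here), and deposited UMI counts per gene, normalized CPM (a signal, equal to the count times 1 constant per sample) and batch-regressed log2 values. By the paper's account RNA spike-ins set the constants, so a level depends on 79 spike-ins. The constants did not follow the spike-in share of a pool, however.

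Counts were tested with edgeR 4.0.16 (filterByExpr by genotype, spike-in factors, quasi-likelihood test, all 9 samples in 1 fit), after a test on simulated counts. DESeq2 1.42.0, TMM factors, sva 3.50.0, a replicate block, no filter and leaving out each sample were alternatives. Ratios were tested with scipy 1.17.1. The lowest detectable amount was 3 UMIs over 3 pools. Gencode vM21 gave strand, length and neighbours. Deviations of same-numbered XO and XY samples from their genotype means correlated at 0.83, 0.28 and 0.77 across tested genes. XO2 correlated at 0.72 with XY3, more than with XY2, so the data do not pair these samples by number throughout. For XX samples the correlations were 0.47, -0.45 and 0.68 with XO and 0.44, -0.060 and 0.73 with XY, which gives no such pairing either. The replicate block nevertheless took in all samples by number, so its comparisons rest on a pairing that these data do not show throughout.

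The members and lists were chosen with earlier results of these data known. Named are all members, each listed gene called at least once, the most abundant gene of each list and the 5 genes most like Foxo3 with at least 10 TMM-scaled CPM. The values of 2 genes that this rule names are not reported here.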

Additional observations from a re-analysis of the deposited data

How the results depend on the processing

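Log2 differences are given as XO over XX, XY over XX and XO over XY, and the cause of the changes below was not tested. Between XX and XO, where 3 members were called, 1 was called with 2 surrogate variables (Tsc2, and none of the 3), 0 after Benjamini-Hochberg adjustment and 0–6 when a pool was left out. Without a filter 3 were called, Tsc2 in place of Pik3ca, and all 3 also after adjustment. Between XX and XY, where 0 were called, 1 was called with 2 surrogate variables. The 1 member called between XY and XO became 0 with TMM scaling, with 2 surrogate variables or after adjustment, 4 without a filter (2 after adjustment) and 0–6 with a pool left out. Of the pathway genes, 23, 5 and 17 were called without a filter in the 3 comparisons, where 95 genes were tested and 13, 1 and 6 passed adjustment, against 11, 3 and 3 called of 62. Of all 28051 genes in the fit without a filter, 3953, 1214 and 2735 were called and 1607, 93 and 783 passed adjustment. With 2 surrogate variables, 9 pathway genes were called for XX against XY and 11 for XY against XO, and 2, 4 and 3 passed adjustment in the 3 comparisons. Of all 10993 genes, 1819, 2193 and 2530 were called with these variables and 354, 703 and 748 passed adjustment. In the fit the report gives, adjustment left 0, 0 and 0 pathway genes. With a pool left out the counts of pathway genes were 7–30, 2–5 and 1–25, and the highest counts came without XO1. Of all tested genes, 1008–4279, 384–1283 and 425–3720 were called with a pool left out.

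None of the member differences that changed sign below had been called, except that of Rptor between XY and XO. With 2 surrogate variables, those of Foxo3 (-0.013), Tsc1 (-0.11) and Rictor (-0.14) turned negative in XO over XX, those of Foxo3 (-0.15) and Rptor (-0.10) in XY over XX, and that of Rictor (-0.013) in XO over XY. Foxo3 in XY over XX was -0.18 with TMM scaling and -0.16 with DESeq2, and Rictor in XO over XX was -0.039 and -0.0062. In the batch-regressed values Rptor in XO over XY was -0.099, and differences that had not been called were also negative where they had been positive, for Foxo3 (-0.37), Tsc1 (-0.76), Tsc2 (-0.88) and Rictor (-0.58) in XO over XY, Foxo3 (-0.50), Tsc1 (-1.02), Tsc2 (-0.48) and Rictor (-0.72) in XO over XX and Foxo3 (-0.13) in XY over XX. With a pool left out, differences in XY over XX ranged from -0.15 to 0.12 for Foxo3, -0.0050 to 0.33 for Pdpk1, -0.47 to 0.28 for Tsc1, -0.10 to 0.94 for Mtor, -0.32 to 1.63 for Rptor and -0.13 to 0.16 for Rictor, and that of Pdpk1 in XO over XY from -0.17, without XO1, to 0.41.

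The ratio of Tsc1 to Tsc2 in XX against XO and XY together differed by 0.68–0.89 on the log2 scale with a pool left out, and between XY and XO by -0.093 to 0.47, or -0.13 in the batch-regressed values. The log2 ratio of Foxo3 to Akt1 ranged from -0.59 to 0.75 for XX minus XO, -0.71 to 0.68 for XX minus XY, -0.68 to 0.80 for XY minus XO and -0.58 to 0.53 for XX minus the others, with batch-regressed values of -0.30 for XX minus XO, -0.38 for XY minus XO and -0.11 for XX minus the others.

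The replicate block took same-numbered pools of all genotypes together, although the data do not show such a pairing for all pools. With it, 2 members and 12 pathway genes were called between XY and XO, 6 pathway genes between XX and XY and 16 between XX and XO. Of all 10993 genes, 1827, 1007 and 2527 were called in these comparisons, and Foxo3 in XY over XX was -0.038. The ratio of Tsc1 to Tsc2 in XX against the others kept its difference of 0.76 when genotypes were permuted within each number, XX pools included. The exact permutation p was 0.0741, the smallest that 27 arrangements allow. The block changed no other call of a member or a ratio.

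Depth limits Akt1, at 0–4 UMIs in a pool, and Mtor and Rptor, with 2–12 UMIs in the lowest pool of each genotype. It also limits the ratio of Tsc1 to Tsc2, since Tsc1 had 17 UMIs in XO1 and 31 in XY1. The spike-ins, which by the paper's account set the scale, held 0.204–0.862% of the UMIs of a pool.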
